A study of Mus musculus with 9 samples.

Results

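Ikzf1, Ikzf2, Ikzf3, Bcl11b, Runx1, Ets1, Fbxw7 and Phf6 are regulators of lymphoid gene expression or protein turnover whose loss or mutation is linked to T cell leukemia, and their transcripts were measured in mouse thymus tumors and normal thymus. The genes were taken by symbol, with earlier results of these data known. All probe sets to which the platform's gene table gives one of these symbols and no other were used, which gave 27 of the 45037 probe sets other than control rows and 8 of the 18193 genes with such a probe set. Runx1 had 6 probe sets, Bcl11b and Ets1 had 4 each, Ikzf2, Ikzf3 and Phf6 had 3 each, and Ikzf1 and Fbxw7 had 2 each. By RefSeq's gene table (assembly GRCm38.p6), Ikzf1 and Ikzf3 lie on chromosome 11, Ikzf2 on chromosome 1, Bcl11b on chromosome 12, Runx1 on chromosome 16, Ets1 on chromosome 9, Fbxw7 on chromosome 3 and Phf6 on chromosome X.

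Total RNA came from thymus tumor, from thymus tumor that the labels name XIST resistant, and from normal mouse thymus, with 3 Affymetrix Mouse430_2 arrays for each group. XIST is a noncoding RNA that silences a whole X chromosome, and the labels do not say how the resistance was defined. Genotype, strain, sex, age and any treatment or transgene of the mice were not given in the sources used here. Neither is it stated that arrays within a group represent different animals, and the p-values may therefore describe technical variation alone. Each kind of tumor was set against normal thymus, and resistant tumors were set against tumors.

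The values are MAS5 signals, an intensity per probe set in arbitrary units, scaled so that each array has about the same trimmed mean. Array medians were 13.9 to 25.8, and Actb, whose 3' over 5' signal reflects how intact the RNA was, gave ratios of 1.91 to 3.16 in tumors, 1.96 to 2.64 in resistant tumors and 1.63 to 1.91 in normal thymus, with tumor 2 and resistant tumor 3 the highest. The part of this ratio in the results was not tested. Poly-A control transcripts, which can be added to RNA before labelling, gave mean signals of 2.01 to 2.95 in 4 arrays (tumor 1, resistant tumor 1, resistant tumor 2 and normal thymus 1) and of 141 to 237 in the other 5. These sets of arrays are called arrays without and arrays with spike-ins, and both held all 3 groups. Precision is limited by there being 3 arrays a group.

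Tumors and resistant tumors carried T cell transcripts. The summed signal of 13 T cell and thymocyte markers was 14258 to 14904 in tumors, 12493 to 15034 in resistant tumors and 20811 to 22664 in normal thymus. In each kind of tumor 9 of the 13 markers fell and 1, Ptcra, rose, at a limma adjusted p under 0.05. Of all genes tested, 19.1% were lower and 23.3% higher in tumors by that test. In resistant tumors 20.2% were lower and 23.1% higher. Cd2, Cd8a and Cd8b1 stayed below the array median on all 6 arrays. These genes passed the filter on low signal through the normal thymus arrays alone, so the filter favoured their fall. Cd3d, a chain of the T cell receptor complex, gave signals of 2262, 2517 and 2694 in tumors, 1742, 2590 and 2211 in resistant tumors, and 2787, 2508 and 2689.9 in normal thymus. The coreceptor gene Cd8a was at 3.63 to 20.6 in tumors and 7.53 to 15.6 in resistant tumors, against 2134 to 2261 in normal thymus. Cd4 was at 13.9 to 24.2 in tumors and 6.08 to 17.9 in resistant tumors, against 968 to 1240.4 in normal thymus. Summed thymic epithelium markers (9 genes) were at 131 to 321 in tumors and 150.4 to 251 in resistant tumors, against 5602 to 5912 in normal thymus, and 6 of the 9 genes in tumors and 5 in resistant tumors stayed below the array median throughout the group. Summed B cell markers (6 genes) were at 65.1 to 144 in tumors and 104 to 136 in resistant tumors, against 288 to 299.8 in normal thymus, with 4 of the 6 below the array median throughout both tumor groups. Fibroblast markers (6 genes) were higher in sum, at 2240 to 5217 in tumors and 2671 to 6563 in resistant tumors, against 1049.7 to 1153 in normal thymus. Of these, the collagen genes Col1a1, Col1a2 and Col3a1 rose in both kinds of tumor and Pdgfrb rose in resistant tumors. Dcn, which fell in resistant tumors and did not pass in tumors, was at 147 to 349 in tumors and 91.0 to 331 in resistant tumors, against 455 to 488 in normal thymus. In bulk tissue, fewer cells of a type and less RNA per cell cannot be told apart, and the part of these shifts in the changes described here was not tested.

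Ikaros family proteins bind DNA through zinc fingers, pair with one another through further zinc fingers at their C-terminal end, and bring the NuRD chromatin remodelling and deacetylase complex to their target genes. Mice that lose Ikaros activity develop T cell leukemia and thymic lymphoma, usually with active Notch signalling, and Ikaros represses genes that Notch activates in mouse thymocytes. Bcl11b, Runx1 and Ets1 are transcription factors of T cell development, Fbxw7 marks active Notch1, Myc and cyclin E for destruction, and Phf6 is an X-linked chromatin protein mutated in human T cell leukemia.

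Of the 8 genes, 4 fell in tumors and 5 in resistant tumors, and Runx1 rose in both. In tumors against normal thymus, Ikzf1, Ikzf2, Ikzf3 and Ets1 fell and Runx1 rose at a limma adjusted p under 0.05, while Bcl11b, Fbxw7 and Phf6 did not pass. These are 5 of 8 genes, or 1 higher and 4 lower, where 42.4% of the 11671 genes tested passed, 23.3% higher and 19.1% lower. In resistant tumors against normal thymus the same 5 genes passed in the same directions and Bcl11b fell as well, which gave 1 higher and 5 lower, against 43.3% of all genes, 23.1% higher and 20.2% lower. The median log2 change of the 8 genes was -0.51 in tumors and -0.62 in resistant tumors, beside 0.05 and 0.06 for all genes tested. Both comparisons use the same 3 normal thymus arrays, so their likeness is not independent. Each gene was read from its brightest probe set in these counts, and all 8 passed the filter on low signal, Ikzf2 through its normal thymus arrays alone.

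**Figure D1:**
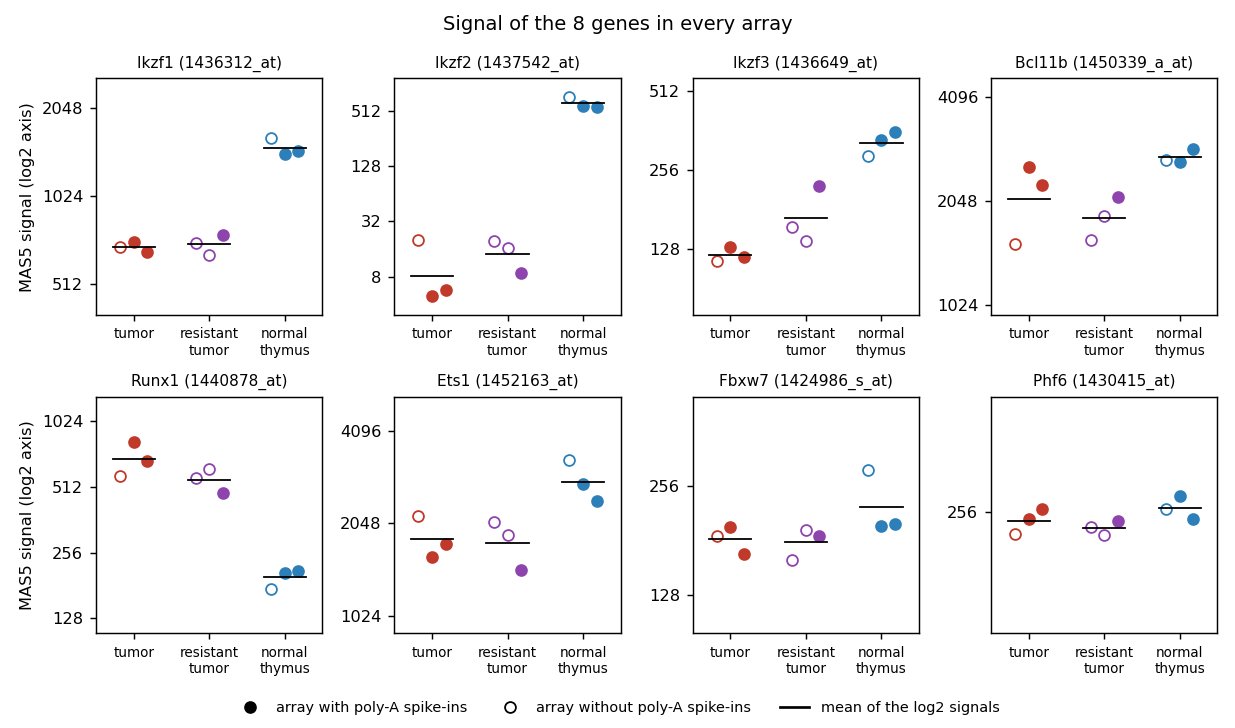
MAS5 signal (arbitrary units, log2 axis) of the probe set that stands for each of the 8 genes, in 3 tumor, 3 resistant tumor and 3 normal thymus arrays, with filled points for arrays with poly-A spike-ins, open points for arrays without them, and a line at the mean of the log2 signals. Ikzf1, Ikzf2, Ikzf3 and Ets1 lie lower in every tumor and resistant tumor array than in any normal thymus array, and Runx1 lies higher. Bcl11b and Fbxw7 also lie lower, by small margins. Of all genes tested, 25.2% lay lower and 30.1% higher without overlap in tumors. In resistant tumors these shares were 25.7% and 28.9%.

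Ikzf1 encodes Ikaros, the founding member of the family. Its signal was 683, 715 and 657 in tumors and 708, 642 and 752 in resistant tumors, against 1618, 1426 and 1459 in normal thymus (probe set 1436312_at). All 6 tumor and resistant tumor arrays lay within a narrow band below the lowest normal thymus array. The log2 change was -1.13 ± 0.10 (SE) in tumors, a level 2.19-fold lower (adjusted p = 2e-05), and -1.10 ± 0.10 in resistant tumors, 2.14-fold lower (adjusted p = 2.44e-05). The dimmer probe set 1421303_at gave 32.1, 15.7 and 26.8 in tumors, 24.8, 45.7 and 27.4 in resistant tumors, and 48.4, 41.1 and 37.1 in normal thymus. Its changes of -0.82 ± 0.34 in tumors (adjusted p = 0.155 over all probe sets) and -0.42 ± 0.34 in resistant tumors (adjusted p = 0.510) did not pass. One RefSeq promoter window of Ikzf1, on the plus strand at chr11:11685675-11685974 of GRCm38.p6 and running from 250 bases before to 50 bases after the annotated start, is shown because Ikzf1 is the Ikaros family gene with such a window.
Ikzf1: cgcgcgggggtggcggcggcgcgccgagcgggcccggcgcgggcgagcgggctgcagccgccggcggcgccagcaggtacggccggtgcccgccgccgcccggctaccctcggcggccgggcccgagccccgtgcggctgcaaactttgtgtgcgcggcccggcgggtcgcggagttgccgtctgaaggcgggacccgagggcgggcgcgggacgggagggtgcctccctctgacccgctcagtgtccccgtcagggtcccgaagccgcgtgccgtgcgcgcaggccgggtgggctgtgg

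Ikzf2 encodes Helios, an Ikaros relative of early thymocytes and regulatory T cells, and had the largest change of the 8 genes. Its brightest probe set, 1437542_at, gave signals of 19.8, 4.90 and 5.70 in tumors and 19.7, 16.5 and 8.85 in resistant tumors, against 721, 573 and 567 in normal thymus. Every tumor and resistant tumor array was under its own array median, so only a bound can be given there. The transcript was at least 35.3-fold lower in tumors (adjusted p = 1.39e-05) and at least 29.8-fold lower in resistant tumors (adjusted p = 3.17e-05). A second probe set, 1456956_at, gave 3.45, 1.92 and 2.66 in tumors and 1.15, 0.718 and 2.39 in resistant tumors, against 302, 333 and 294 in normal thymus. It was at least 17.7-fold lower in tumors (adjusted p = 5.33e-05 over all probe sets) and at least 14.9-fold lower in resistant tumors (adjusted p = 3.61e-05). The third, 1421643_at, was under the array median on all 9 arrays and gives no level in any group. Both detected probe sets thus gave the same direction in both comparisons. Ikzf2 has no promoter window in the table used.

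Ikzf3 encodes Aiolos, a family member of maturing lymphocytes, best known for its part in B cell maturation. Its signal was 115, 131 and 119 in tumors and 156, 138 and 223 in resistant tumors, against 289.7, 333 and 357 in normal thymus (probe set 1436649_at). The 3 groups did not overlap, with tumors lowest and resistant tumors in between. The log2 change against normal thymus was -1.42 ± 0.18 in tumors, 2.68-fold lower (adjusted p = 0.00021), and -0.95 ± 0.18 in resistant tumors, 1.93-fold lower (adjusted p = 0.00229). Probe set 1453378_at, at 15.7, 4.60 and 5.07 in tumors, 11.04, 15.4 and 11.3 in resistant tumors and 33.3, 22.7 and 20.3 in normal thymus, was at least 1.42-fold lower in tumors (adjusted p = 0.0494 over all probe sets). That call ended without any 1 array other than tumor 1 (adjusted p of 0.0630 to 0.155). In resistant tumors its change of -0.996 ± 0.528 did not pass (adjusted p = 0.269), and with a term for the spike-in set it was -1.28 and passed (adjusted p = 0.0373). Probe set 1441088_at changed by -0.91 ± 0.29 in tumors and -0.34 ± 0.29 in resistant tumors, with adjusted p = 0.0666 and 0.533. With the replicate number as a block, the change of 1441088_at in tumors passed (adjusted p = 0.0202), as it did with a term for the spike-in set (adjusted p = 0.00564).

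Bcl11b encodes a zinc finger repressor needed for commitment to the T cell lineage, and the changes of its brightest probe set were small. The brightest probe set, 1450339_a_at, gave 1535, 2574 and 2279.8 in tumors and 1577, 1854 and 2097 in resistant tumors, against 2696, 2655 and 2894 in normal thymus. All tumor and resistant tumor arrays lay below all normal thymus arrays, tumor 2 by a small margin. At the gene level its log2 change was -0.40 ± 0.18 in tumors (adjusted p = 0.0993) and -0.59 ± 0.18 in resistant tumors (adjusted p = 0.0244). In the fit over all probe sets neither change passed (adjusted p = 0.223 and 0.0747). At the gene level the tumor change passed with the replicate number as a block (adjusted p = 0.0264) and with a term for the spike-in set (adjusted p = 0.0177). It also passed there with quantile normalization (adjusted p = 0.0295) and without tumor 2 (adjusted p = 0.0413). Over all probe sets, the replicate block gave adjusted p = 0.109 in tumors and 0.0336 in resistant tumors. Within the arrays without spike-ins, tumor 1 against normal thymus 1 alone, the tumor change was -0.81. Within the arrays with them it was -0.19. Probe set 1452966_at gave the clearest difference, at 1073, 1274 and 1099 in tumors and 1159, 1115 and 1028 in resistant tumors, against 1776, 1652 and 1809 in normal thymus. Its log2 change was -0.61 ± 0.10 in tumors (adjusted p = 0.00314 over all probe sets) and -0.67 ± 0.10 in resistant tumors (adjusted p = 0.00204). The other probe sets, 1435227_at and 1438784_at, changed by -0.51 and -1.01 in tumors and by -0.35 and -0.77 in resistant tumors, none past the test. With a term for the spike-in set both passed, 1435227_at with adjusted p = 0.00291 in tumors and 0.00383 in resistant tumors and 1438784_at with 0.0125 and 0.0106. In tumors 1435227_at also passed with the replicate block (adjusted p = 0.0204). The RefSeq promoter window of Bcl11b, on the minus strand at chr12:108003365-108003664 of GRCm38.p6, is shown beside that of Ikzf1 as a gene with a high signal in all 3 groups.
Bcl11b: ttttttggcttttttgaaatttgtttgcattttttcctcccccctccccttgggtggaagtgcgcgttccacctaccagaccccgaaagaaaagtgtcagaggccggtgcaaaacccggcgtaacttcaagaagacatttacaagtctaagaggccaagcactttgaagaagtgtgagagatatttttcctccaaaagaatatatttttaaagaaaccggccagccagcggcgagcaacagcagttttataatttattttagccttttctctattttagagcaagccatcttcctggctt

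Runx1 encodes the DNA-binding subunit of a core-binding factor, required at several steps of thymocyte development, and was the member that rose. Its brightest probe set, 1440878_at, gave 577, 826 and 675 in tumors and 563, 616 and 478 in resistant tumors, against 175, 207 and 212 in normal thymus. The lowest tumor or resistant tumor array lay well above the highest normal thymus array. The log2 change was 1.80 ± 0.16 in tumors, 3.47-fold higher (adjusted p = 2.19e-05), and 1.48 ± 0.16 in resistant tumors, 2.79-fold higher (adjusted p = 7.15e-05). Probe set 1427650_a_at gave 110.5, 177 and 167 in tumors and 92.1, 92.9 and 122 in resistant tumors, against 34.2, 55.6 and 36.9 in normal thymus. Here too no arrays overlapped, and the log2 change was 1.84 ± 0.25 in tumors (adjusted p = 0.00151 over all probe sets) and 1.30 ± 0.25 in resistant tumors (adjusted p = 0.00816).

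The other 4 Runx1 probe sets had positive changes as well, from 0.9995 to 1.58 in tumors and 1.08 to 1.72 in resistant tumors, and none passed the test. They split by spike-in set. Probe set 1422864_at, for example, gave 1021, 365 and 504 in tumors, 1083, 906 and 221 in resistant tumors, and 367, 144 and 133 in normal thymus, where the highest values in each group are those of the arrays without spike-ins. In a fit with the spike-in set as a term, arrays with spike-ins were lower by 1.61 on the log2 scale for this probe set, by 1.70 for 1452531_at, by 0.87 for 1422865_at and by 0.77 for 1452530_a_at, and higher by 0.11 for 1440878_at and 0.48 for 1427650_a_at. The change of 1422864_at against normal thymus within the arrays without spike-ins was 1.48 in tumors and 1.43 in resistant tumors, and within the arrays with them 1.63 and 0.67. Without spike-ins, tumor 1 and normal thymus 1 each stand alone for their group, as resistant tumor 3 does with them. The fit with the spike-in set as a term called all 4 of these probe sets in tumors (adjusted p of 0.0014 to 0.0216). It called 3 in resistant tumors (0.00418 to 0.0174), where 1422865_at did not pass (0.108). With the replicate number as a block, 1422864_at and 1452530_a_at passed in tumors (adjusted p = 0.0439 and 0.0335). In resistant tumors that block called 1422864_at, 1452530_a_at and 1452531_at (adjusted p = 0.0380, 0.0369 and 0.0187).

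**Figure D2:**
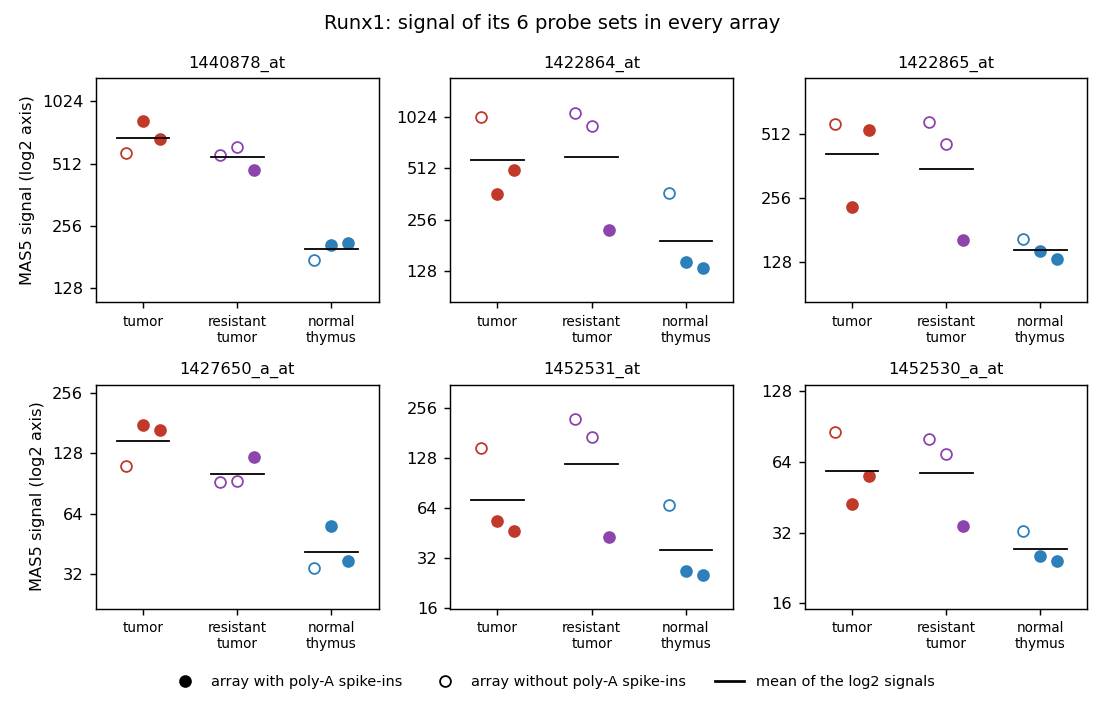
MAS5 signal (arbitrary units, log2 axis) of the 6 Runx1 probe sets in 3 tumor, 3 resistant tumor and 3 normal thymus arrays, with filled points for arrays with poly-A spike-ins, open points for arrays without them, and a line at the mean of the log2 signals. In 1440878_at and 1427650_a_at all tumor and resistant tumor arrays lie above all normal thymus arrays, while in 1422864_at and 1452531_at the open points lie above the filled points of their own group.

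The RefSeq promoter table holds 2 windows for Runx1, both on the minus strand of GRCm38.p6, and they are shown because Runx1 is the member that rose. The more upstream window lies at chr16:92826025-92826324 and the other at chr16:92697280-92697579. Capitals mark matches, on either strand, to the RUNX core TGTGGT, to the E box CACCTG and to the ETS core CCGGAA, and a match on the minus strand appears as the reverse complement of these letters.
Runx1 upstream window: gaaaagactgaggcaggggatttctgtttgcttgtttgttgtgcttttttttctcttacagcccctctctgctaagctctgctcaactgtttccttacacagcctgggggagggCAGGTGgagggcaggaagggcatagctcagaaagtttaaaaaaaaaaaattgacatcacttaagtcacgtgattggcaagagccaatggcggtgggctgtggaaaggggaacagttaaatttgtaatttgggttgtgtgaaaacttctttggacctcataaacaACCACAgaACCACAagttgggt
Runx1 downstream window: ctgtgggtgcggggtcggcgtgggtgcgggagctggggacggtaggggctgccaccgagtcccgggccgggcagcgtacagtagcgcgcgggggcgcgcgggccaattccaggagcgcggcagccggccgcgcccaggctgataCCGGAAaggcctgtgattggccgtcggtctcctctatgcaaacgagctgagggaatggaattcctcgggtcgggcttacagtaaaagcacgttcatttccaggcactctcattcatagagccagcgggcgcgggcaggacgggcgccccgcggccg
The upstream window held 2 matches to the RUNX core, 28 and 36 bases after the start, and 1 match to the E box, and the downstream window held 1 match to the ETS core. Neither held the Ikaros core TGGGAA on either strand. Of the 32851 windows of this length in the table, 16.8% held the RUNX core, 20.2% the E box, 14.9% the ETS core and 25.6% the Ikaros core, so single matches are common. The windows printed for Ikzf1 and Bcl11b held none of these motifs, which says only that these letters are not there.

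Ets1 encodes a transcription factor of mature and developing T cells that binds DNA together with Runx1 at many T cell genes. Its brightest probe set, 1452163_at, gave 2157, 1597 and 1751 in tumors and 2068, 1874 and 1442 in resistant tumors, against 3292, 2746 and 2424 in normal thymus. All normal thymus arrays were above all others. The log2 change was -0.62 ± 0.17 in tumors, 1.54-fold lower (adjusted p = 0.0141), and -0.66 ± 0.17 in resistant tumors, 1.58-fold lower (adjusted p = 0.0108). Probe set 1426725_s_at changed by -0.80 ± 0.26 in tumors (adjusted p = 0.0670 over all probe sets, 0.0235 with the replicate block and 0.00122 with a term for the spike-in set) and by -0.87 ± 0.26 in resistant tumors (adjusted p = 0.0491). The call in resistant tumors ended without any 1 array other than tumor 1 or resistant tumor 1 (adjusted p of 0.0685 to 0.138).

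A larger decrease was measured by the dimmer Ets1 probe sets 1422028_a_at and 1422027_a_at. The first gave 68.2, 44.9 and 47.5 in tumors and 58.3, 51.3 and 56.0 in resistant tumors, against 188, 230.0 and 222 in normal thymus. Its log2 change was -2.02 ± 0.18 in tumors (adjusted p = 0.000177 over all probe sets) and -1.95 ± 0.18 in resistant tumors (adjusted p = 0.00021). The second changed by -1.73 ± 0.22 in tumors (adjusted p = 0.00115) and -1.85 ± 0.22 in resistant tumors (adjusted p = 0.000826). Averaged over each pair of probe sets, the dimmer pair fell by 1.16 more than the brighter pair in tumors and by 1.14 more in resistant tumors, on the log2 scale. These pairs were formed after their values were seen, so no test of that difference is given. Which Ets1 transcripts each probe set detects is not annotated in the tables used.

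Fbxw7 encodes the substrate-binding subunit of an SCF ubiquitin ligase, and 1 of its 2 probe sets passed the test. The brighter, 1424986_s_at, gave 187, 197 and 166 in tumors and 159.9, 194 and 186 in resistant tumors, against 283, 199 and 202 in normal thymus. Normal thymus 1 stood apart, the other normal thymus arrays lay just above the tumor arrays, and the log2 changes of -0.30 ± 0.16 in tumors (adjusted p = 0.171) and -0.33 ± 0.16 in resistant tumors (adjusted p = 0.137) did not pass. With a term for the spike-in set, the second passed (adjusted p = 0.0464). Probe set 1451558_at gave 163, 164 and 137 in tumors and 135, 154 and 145 in resistant tumors, against 215, 279.8 and 267 in normal thymus. All its normal thymus arrays were higher, and it fell by 0.71 ± 0.13 on the log2 scale in tumors (adjusted p = 0.00618 over all probe sets) and by 0.80 ± 0.13 in resistant tumors (adjusted p = 0.00349). Of the 3 RefSeq promoter windows of Fbxw7, the last, on the plus strand at chr3:84951961-84952260 of GRCm38.p6, is shown because it held 2 matches to the RUNX core, marked in capitals.
Fbxw7: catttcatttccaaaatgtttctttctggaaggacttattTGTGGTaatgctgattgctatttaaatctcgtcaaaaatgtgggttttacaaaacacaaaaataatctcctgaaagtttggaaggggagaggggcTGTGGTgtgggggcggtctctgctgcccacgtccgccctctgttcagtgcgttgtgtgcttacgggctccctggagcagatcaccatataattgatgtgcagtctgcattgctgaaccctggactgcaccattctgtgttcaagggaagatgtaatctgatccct
The first window of Fbxw7 held 1 RUNX core and the middle one none of the motifs.

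Phf6 changed least. Its signal was 230.3, 248 and 259 in tumors and 238, 230.2 and 245 in resistant tumors, against 261, 277 and 248 in normal thymus (probe set 1430415_at). The log2 change was -0.09 ± 0.11 in tumors (95% interval -0.33 to 0.14, adjusted p = 0.527) and -0.14 ± 0.11 in resistant tumors (95% interval -0.37 to 0.10, adjusted p = 0.329). Tumors and normal thymus overlapped. The resistant tumor arrays all lay just below the normal thymus arrays, as they did for 25.7% of all genes tested. Probe set 1454625_at changed by 0.28 ± 0.49 and 0.60 ± 0.49 and 1453761_at by -0.19 ± 0.59 and -0.11 ± 0.59 in tumors and resistant tumors, none past the test. Probe set 1454625_at was lower by 1.14 on the log2 scale in arrays with spike-ins.

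Over all 27 probe sets, 2 rose and 10 fell in tumors against normal thymus, and the same numbers were found in resistant tumors. Among all 45037 probe sets, taken without a filter on low signal, 18.5% passed in each comparison. These were 9.19% higher and 9.32% lower in tumors and 9.26% higher and 9.27% lower in resistant tumors. Every member probe set but Ikzf2 1421643_at meets that filter, so the shares over all probe sets are not matched to the members in signal. Among genes past the filter, 42.4% passed in tumors and 43.3% in resistant tumors. With a term for spike-in set in the fit, the counts were 6 higher and 14 lower in tumors, where 30.4% of all probe sets passed (15.1% higher and 15.3% lower), and 5 higher and 14 lower in resistant tumors, where 29.5% passed (14.6% higher and 14.9% lower). The groups did not overlap for 4 probe sets that were higher and 17 that were lower in tumors, against 16.2% and 17.4% of all probe sets. For resistant tumors these counts were 3 and 14, against 16.8% and 16.7%. At the gene level, setting all array medians equal ended the calls of Ikzf1, Ikzf3 and Ets1 in tumors (adjusted p = 0.0785, 0.0627 and 0.262) and of Ikzf3, Ets1 and Bcl11b in resistant tumors (adjusted p = 0.134, 0.0675 and 0.364). The Ets1 call in tumors ended without normal thymus 1 or tumor 2 (adjusted p = 0.0536 and 0.0586). In the fit over all probe sets, Ets1 1452163_at passed narrowly (adjusted p = 0.0480 in tumors and 0.0384 in resistant tumors). Leaving out 1 array ended that call in 7 fits in tumors (adjusted p up to 0.158) and in 6 in resistant tumors (up to 0.110). The Bcl11b call in resistant tumors ended without any of the normal thymus arrays and without resistant tumor 1 or 2 (adjusted p of 0.0527 to 0.0818), and without a filter (adjusted p = 0.0547). The gene-level calls of Runx1 and Ikzf2 held under all 19 alternatives. Over all probe sets, equal array medians also ended the calls of Bcl11b 1452966_at (adjusted p = 0.544 in tumors and 0.256 in resistant tumors), of Fbxw7 1451558_at (0.435 in tumors and 0.178 in resistant tumors), and, in resistant tumors, of Runx1 1427650_a_at (0.192) and 1440878_at (0.0555). The same setting ended, in tumors and resistant tumors, the probe set calls of Ikzf1 1436312_at (adjusted p = 0.120 and 0.0646), Ikzf3 1436649_at (0.124 and 0.214) and Ets1 1452163_at (0.353 and 0.119).

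**Figure D3:**
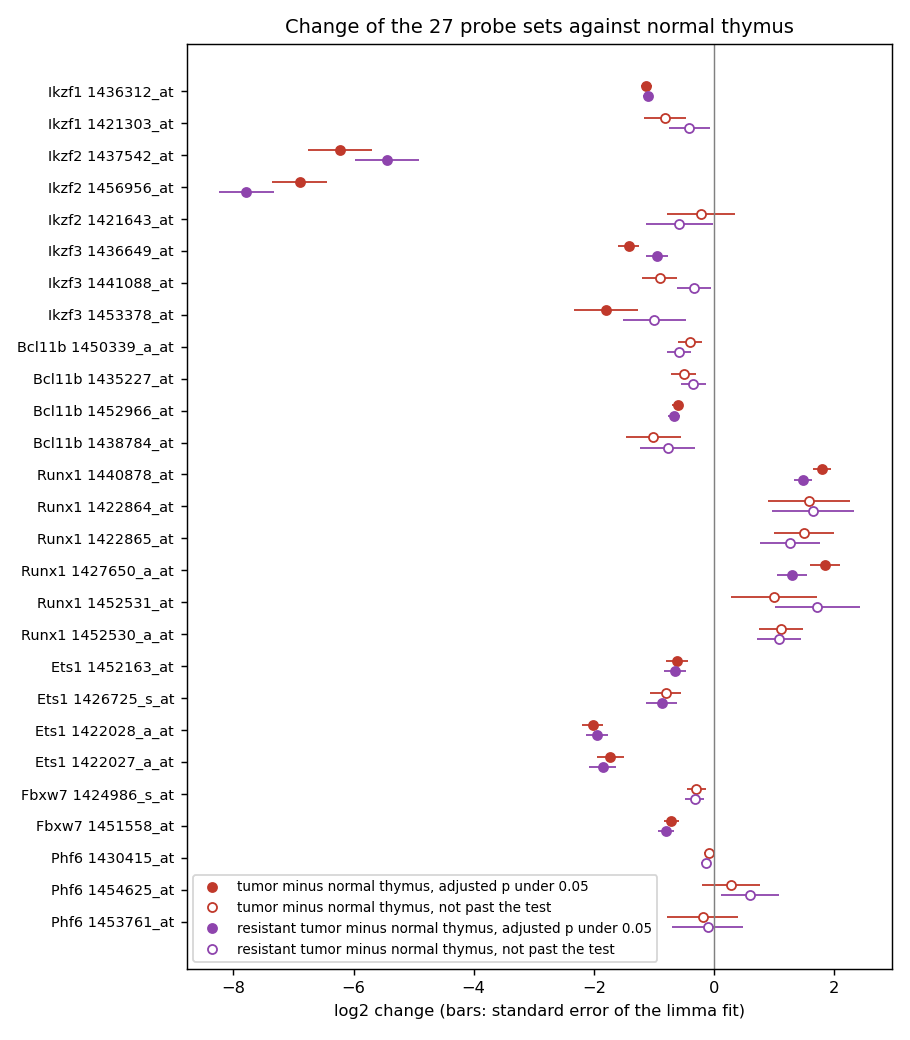
Log2 change against normal thymus, with the standard error of the limma fit, of the 27 probe sets in tumors and resistant tumors, filled where the adjusted p over all probe sets was under 0.05. Ikzf2 1437542_at and 1456956_at lie furthest to the left, all 6 Runx1 probe sets lie right of 0, and Ets1 1422028_a_at and 1422027_a_at lie left of the other Ets1 probe sets.

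No difference between resistant tumors and tumors passed the test for any of the 8 genes. By limma, 0 of 8 passed at an adjusted p under 0.05, where 0.360% of all genes passed, and 1 of 8 had an unadjusted p under 0.05, where 7.23% of all genes did. Of the 27 probe sets 0 passed, against 0.0178% of all, and 1 had an unadjusted p under 0.05, against 5.12% of all. That one was Ikzf3, whose arrays did not overlap, and whose log2 change between resistant tumors and tumors was 0.47 ± 0.18 (95% interval 0.07 to 0.88, adjusted p = 0.558). With a term for the spike-in set it was 0.58 ± 0.12 (95% interval 0.30 to 0.86, adjusted p = 0.0601). The groups did not overlap for 10.4% of all genes.

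Intervals were narrow for several members. Resistant tumors differed from tumors by 0.03 for Ikzf1 (95% interval -0.19 to 0.25), by -0.05 for Phf6 (-0.28 to 0.19), by -0.03 for Fbxw7 (-0.39 to 0.34) and by -0.04 for Ets1 (-0.41 to 0.34), all on the log2 scale. With a term for the spike-in set the differences were 0.03 for Ikzf1, -0.02 for Phf6, -0.08 for Fbxw7 and -0.17 for Ets1 (95% interval -0.34 to 0.01). The intervals of Bcl11b, at -0.19 (-0.59 to 0.22), and Runx1, at -0.32 (-0.67 to 0.03), reach down to 0.666 and 0.629 times the level in tumors. Ikzf2 was under the array median in both groups, so no fold is given.

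**Figure D4:**
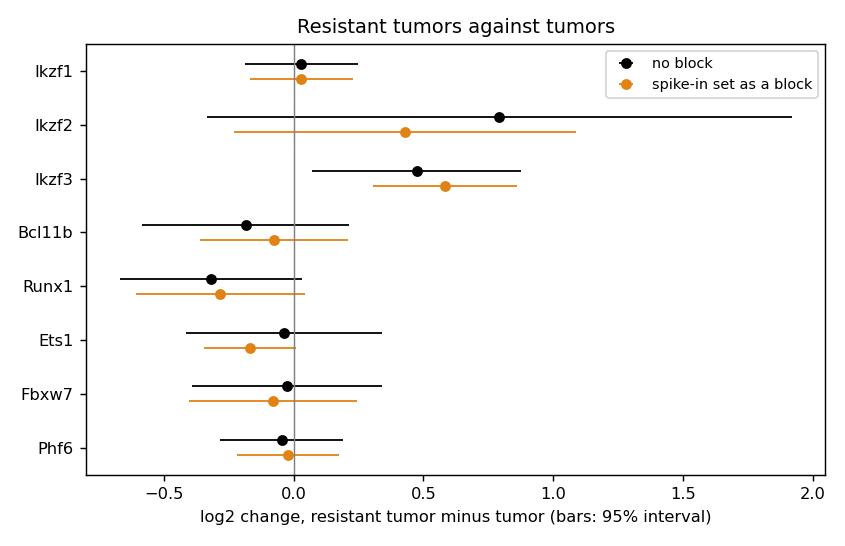
Log2 change of the 8 genes, resistant tumor minus tumor, with its 95% interval, fitted without (black) and with (orange) a term for spike-in set. The Ikzf3 interval lies above 0 in both fits and the intervals of the other 7 genes include 0.

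Genes that work with these regulators were counted in 5 lists, each beside the share of all genes tested that passed, 42.4% in tumors (23.3% higher and 19.1% lower) and 43.3% in resistant tumors (23.1% higher and 20.2% lower). The medians are read against 0.05 and 0.06 for all genes. Among 21 paralogs and NuRD subunits, 2 rose and 5 fell in tumors and 3 rose and 7 fell in resistant tumors, with medians of -0.21 and -0.41 on the log2 scale. Those counts are near the share of all genes. Ikzf4, which encodes the Ikaros relative Eos, was at least 2.17-fold lower in tumors (adjusted p = 0.00528) and at least 1.83-fold lower in resistant tumors (adjusted p = 0.00659). Bcl11a, the paralog of Bcl11b active in B cells and early progenitors, was at least 1.85-fold lower in tumors (adjusted p = 0.0012) and at least 1.56-fold lower in resistant tumors (adjusted p = 0.00266). Ikzf4 and Bcl11a were under the array median in every tumor and resistant tumor array. Like Ikzf2, they passed the filter on low signal through the normal thymus arrays alone. The NuRD helicase gene Chd3 changed by -0.77 ± 0.26 in tumors (adjusted p = 0.0371) and -1.63 ± 0.26 in resistant tumors (adjusted p = 0.000875), and leaving out tumor 1, tumor 3 or any normal thymus array ended the call in tumors (adjusted p of 0.0685 to 0.106), as did testing without a filter (0.0660) or an intensity trend (0.0551). Mta1, another NuRD subunit, rose by 0.84 ± 0.12 in tumors (adjusted p = 0.000429) and 0.88 ± 0.12 in resistant tumors (adjusted p = 0.000336).

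Among 22 RUNX and ETS relatives and cofactors, 4 rose and 7 fell in tumors and 5 rose and 8 fell in resistant tumors, with medians of -0.22 and -0.15, beside 42.4% and 43.3% of all genes called. Etv5, an ETS factor, averaged 499.6 ± 30.6 in tumors and 584 ± 202 in resistant tumors, against 50.8 ± 5.37 in normal thymus (SD, n = 3 each), a log2 change of 3.30 in tumors (adjusted p = 4.84e-06) and 3.47 in resistant tumors (adjusted p = 3.93e-06). The corepressor gene Tle4 was at least 9.76-fold lower in tumors (adjusted p = 5.89e-05) and at least 8.23-fold lower in resistant tumors (adjusted p = 9.04e-05). Its relative Tle1 was at least 3.90-fold lower in tumors (adjusted p = 0.00204) and at least 3.29-fold lower in resistant tumors (adjusted p = 0.00232). Tle4 and Tle1 also passed the filter on low signal through the normal thymus arrays alone. Satb1, a chromatin organiser of thymocytes, changed by -1.31 ± 0.13 in tumors (adjusted p = 5.28e-05) and -1.72 ± 0.13 in resistant tumors (adjusted p = 1.03e-05). Cbfb, which encodes the partner of Runx1 and was chosen after its values were seen, changed by 0.13 ± 0.11 in tumors (adjusted p = 0.384) and -0.10 ± 0.11 in resistant tumors (adjusted p = 0.486).

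Of 21 genes for the FBXW7 ligase and transcripts of its substrates, 4 rose and 2 fell in tumors and 4 rose and 5 fell in resistant tumors, with medians of 0.15 and 0.22, which is no larger a share than the 42.4% and 43.3% of all genes. Notch1 averaged 2901 ± 155 in tumors and 2615 ± 202 in resistant tumors, against 949 ± 67.5 in normal thymus, a log2 change of 1.61 in tumors (adjusted p = 1.81e-06) and 1.46 in resistant tumors (adjusted p = 3.59e-06). Myc rose by 1.27 ± 0.12 in tumors (adjusted p = 4.34e-05) and 0.98 ± 0.12 in resistant tumors (adjusted p = 0.000219). The quiescence factor gene Klf2 changed by -2.09 ± 0.31 in tumors (adjusted p = 0.00058) and -1.96 ± 0.31 in resistant tumors (adjusted p = 0.000862). Cul1, the scaffold of the SCF ligase, rose by 0.50 ± 0.10 in tumors (adjusted p = 0.00387), and Skp2, a rival substrate-binding subunit, by 0.75 ± 0.23 in resistant tumors (adjusted p = 0.025). The Skp2 call ended without normal thymus 2 or 3 or without resistant tumor 1 or 2 (adjusted p of 0.0792 to 0.0892).

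Of 26 other T leukemia suppressors tested, 4 rose and 7 fell in tumors and 5 rose and 8 fell in resistant tumors, with medians of -0.19 and -0.17, near the 42.4% and 43.3% of all genes called. Socs1, an inhibitor of cytokine signalling, fell to 60.1 ± 13.5 in tumors and 77.1 ± 21.4 in resistant tumors, against 324 ± 119 in normal thymus, a log2 change of -2.37 in tumors (adjusted p = 0.000284) and -2.03 in resistant tumors (adjusted p = 0.000738). Zfp36l1, an RNA-binding protein that destabilises its target messages, changed by -1.12 ± 0.18 in tumors (adjusted p = 0.000836) and -0.97 ± 0.18 in resistant tumors (adjusted p = 0.00194). The histone demethylase gene Kdm6a, like Phf6 on the X chromosome, changed by -0.97 ± 0.17 in tumors (adjusted p = 0.00147) and -0.98 ± 0.17 in resistant tumors (adjusted p = 0.0014). Nf1, a brake on Ras, rose by 1.21 ± 0.23 in tumors (adjusted p = 0.00233) and 1.08 ± 0.23 in resistant tumors (adjusted p = 0.00429).

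The last list held 10 Notch targets and other genes linked to Ikaros loss in mouse T cell leukemia. In tumors 7 rose and 1 fell, and the same counts held in resistant tumors, with medians of 2.37 and 1.85, where 23.3% and 23.1% of all genes were higher and 19.1% and 20.2% lower. Dtx1, a regulator of Notch that is itself a Notch target, rose by 3.71 ± 0.19 in tumors (adjusted p = 1.06e-06) and 3.34 ± 0.19 in resistant tumors (adjusted p = 2.41e-06). Ptcra, the invariant chain of the pre-T cell receptor, rose by 3.01 ± 0.12 in tumors (adjusted p = 3.05e-07) and 2.76 ± 0.12 in resistant tumors (adjusted p = 5.61e-07). Nrarp, a feedback inhibitor of Notch, rose by 2.90 ± 0.12 in tumors (adjusted p = 2.87e-07) and 2.26 ± 0.12 in resistant tumors (adjusted p = 1.41e-06). The receptor gene Notch3, also among the 7 genes that rose in tumors, rose by 1.99 ± 0.16 in resistant tumors (adjusted p = 1.36e-05). The gene that fell was Lfng, a glycosyltransferase that modifies Notch receptors, at -1.20 in tumors (adjusted p = 0.00564) and -1.13 in resistant tumors (adjusted p = 0.00768), and the genes that did not pass were Il2ra (-1.41 in tumors and -1.11 in resistant tumors) and Igll1 (-0.54 in tumors and -1.01 in resistant tumors), all of them named after their values were seen.

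Heyl, a Notch target of the Hey family, was the gene of these lists that separated resistant tumors from tumors. It averaged 32.1 ± 5.01 in resistant tumors and 127 ± 19.6 in tumors (SD, n = 3 each), a log2 change of -1.98 ± 0.25 (adjusted p = 0.0125). Leaving out tumor 2 or tumor 3 ended the call (adjusted p = 0.110 and 0.0530). In normal thymus it averaged 16.6 ± 4.22, under the array median on all 3 arrays, and it was at least 6.32-fold higher in tumors (adjusted p = 1.7e-05). In the other 4 lists 0 genes passed by limma between resistant tumors and tumors.

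**Figure D5:**
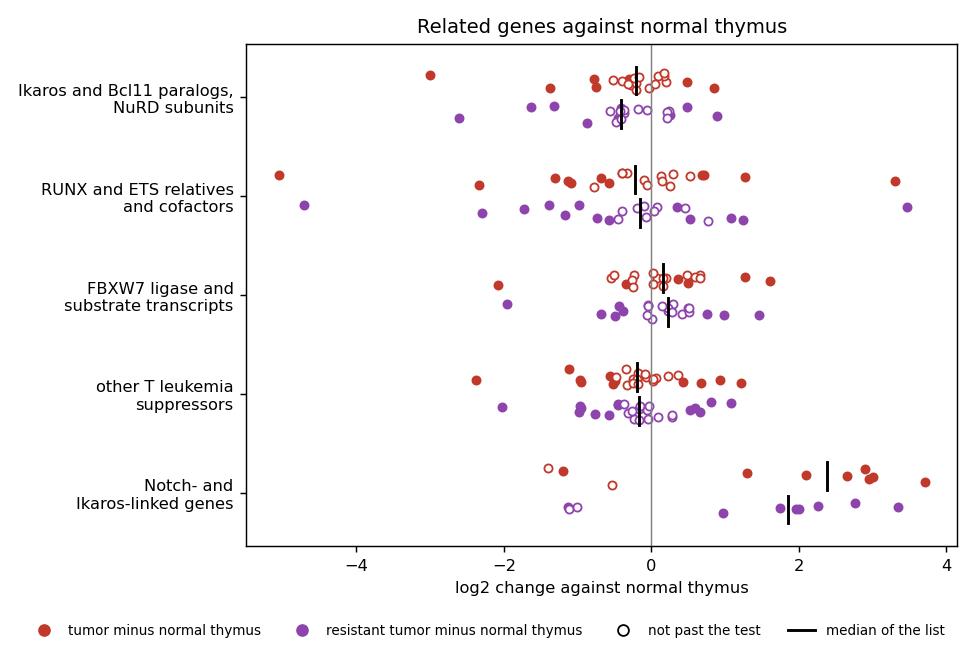
Log2 change against normal thymus of the tested genes in the 5 lists, each point 1 gene in tumors or resistant tumors, filled where the adjusted p was under 0.05, with a line at the median of the list. The Notch- and Ikaros-linked genes lie mostly right of 0, with medians of 2.37 and 1.85, and the medians of the other 4 lists lie between -0.41 and 0.22.

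Genes whose array-by-array profiles were most like those of the members were found by the root mean square difference of log2 signals over the 9 arrays, each gene set to its own mean. This is a description over arrays that share their groups and spike-in sets. For Ikzf1 they were Clcn4 (0.09) and Msn (0.11), for Ikzf2 Ly6k (0.29) and Dgkeos (0.32), and for Ikzf3 Glul (0.14) and Sema7a (0.15). For Runx1 they were Gbf1 (0.17) and Notch1 (0.18), whose protein is a substrate of Fbxw7. For Bcl11b they were Ldhb (0.08) and Cmip (0.09), for Ets1 Cdk2 (0.08) and Dcaf17 (0.09), for Fbxw7 Macroh2a1 (0.08) and Sin3b (0.09), and for Phf6 Igbp1 (0.05) and Dera (0.06). These distances are read against how much each member varied over the 9 arrays, with an SD of 0.09 for Phf6, 0.23 for Fbxw7 and 3.01 for Ikzf2 on the log2 scale.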

How the data were processed

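Per the submitters' processing notes, the authors made the deposited intensity values with MAS5 from 1 Affymetrix array per sample; the MAS5 version and scaling target were not given in the sources used here. Arrays were grouped by their titles. The log2 signal was used without renormalization, after raising values below 1 to 1. Probe sets that reached the array's own median on 3 or more of 9 arrays were kept, and the brightest stood for its gene (11671 genes). One mean per group was fitted in limma 3.58.1 under R 4.3.3 with an intensity trend and 6 residual degrees of freedom, and p-values were adjusted by Benjamini-Hochberg over all genes. Single probe sets came from the same model over all 45037 probe sets, unfiltered. The model over all probe sets was tested on simulated data for tumors against normal thymus, and the filtered gene-level fit was not. A gene below its array's median throughout the 3 arrays of a group has a bound there ("at least"), from the brighter group's mean log2 signal and, per dim array, the higher of the gene's signal and the median.

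Members, lists and motifs were chosen with earlier results of these data known. The text names all member probe sets, up to 4 called genes with the largest change per list and comparison, and the 2 nearest profiles per member. Runx2, Trp53, Tcf7 and other list genes with no probe set of that symbol alone were not used here. The tumor 1 file listed its 64 control rows differently, with a correlation to the other arrays of -0.295 as deposited and 0.907 after sorting by name, which was done before the spike-ins were read. Over all genes, deviations of same-numbered tumor and normal thymus arrays from their group means correlated at 0.654, 0.371 and 0.411. These numbers, from the titles, were used as a block in an alternative fit and not in the main fit. Same-numbered tumor and normal thymus arrays also share a spike-in set, so the correlations cannot tell pairing from that set. Alternatives changed the scaling, filter, offset, probe set choice, trend, block and arrays. Promoter sequences are RefSeq's, of GRCm38.p6. Figures were drawn with matplotlib 3.10.9.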

Additional observations from a re-analysis of the deposited data

How the results depend on the processing

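Over the alternatives run, no called change of a member or named list gene turned its sign. With equal array medians, 2256 genes passed in tumors against normal thymus, in place of 4943, and 2016 in resistant tumors against normal thymus, in place of 5049, with 868 higher and 1148 lower (43.1% higher, in place of 53.4%). The median change of all genes moved from 0.05 to 0.24 in tumors against normal thymus and from -0.02 to -0.26 between resistant tumors and tumors. Of the members, 2 genes passed in tumors and 3 in resistant tumors against normal thymus, in place of 5 and 6, and 6 probe sets in place of 12 in resistant tumors. The spike-in set as a block gave 20 and 19 of 27 probe sets in place of 12 each. Leaving out 1 array gave 4 to 5 member genes and 10 to 14 probe sets in tumors, and 5 to 6 genes and 10 to 14 probe sets in resistant tumors. Between resistant tumors and tumors, 42 genes became 18 with equal medians, 27 with the mean over probe sets, 22 without a filter, 24 with the stricter filter, 8 with the 2 groups alone, 143 with the spike-in block and 92 with the replicate block. Leaving out 1 array gave 8 to 70, with 8 without tumor 2, 10 without tumor 3, 19 without normal thymus 3, 20 without normal thymus 2 and 70 without resistant tumor 3. No alternative called a member there.

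Deviations of same-numbered arrays correlated at 0.433, -0.337 and 0.500 between resistant tumors and normal thymus. Between resistant tumors and tumors the correlations were 0.548, -0.301 and 0.571. The negative values are those of the pairs whose spike-in sets differ, so pairing by number and a shared spike-in set cannot be told apart. The replicate block called 16 member probe sets in resistant tumors against normal thymus and 17 in tumors against normal thymus, in place of 12 each, and ended no call named in the text. With the mean over probe sets, Fbxw7 passed in tumors and resistant tumors against normal thymus (adjusted p = 0.00649 and 0.00364) and Bcl11b in tumors (adjusted p = 0.00539). Among the named list genes, equal array medians also ended the calls of Chd3, Cul1, Kdm6a and Mta1 in tumors and of Mta1, Myc, Nf1 and Skp2 in resistant tumors. The cause of these shifts was not tested. Signals under the array median limit Ikzf2 in both tumor groups.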
